A study of Mus musculus with 45 samples.

Results

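The genes described here encode the proteins of the cytosolic ribosome. They were taken as the protein-coding genes whose mouse symbol is Rps or Rpl followed by a number (a final a, x, y or l allowed), plus Rpsa, Rplp0, Rplp1 and Rplp2, with a mean level of at least 1 count per 1e6 counts (CPM) in each of the 3 deposited tables. Of 83 symbols that matched, 80 were protein coding and 76 passed the limit, out of 42929 gene identifiers named in all tables. These 76 genes comprised 31 of the small (40S) subunit and 45 of the large (60S) subunit, and all 76 were tested in every comparison. Symbol and level decided the choice, and no difference between groups is part of that rule. The set itself was chosen with earlier results of these data known. The protein-coding genes left out for their level were Rpl10l, Rpl24, Rpl39l and Rpl3l.

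All mice were C57BL/6, and the titles of the in vivo samples carry the label WT (wild type). Slice microglia came from coronal brain slices of newborn mice, kept in culture for 2 weeks and then for 24 h in medium alone (n = 9), with 50 ng/mL tumor necrosis factor (TNF, n = 11) or with 20 ng/mL granulocyte-macrophage colony-stimulating factor (GM-CSF, labelled GMCSF, n = 9). Such slices keep the local tissue but have no blood supply, and several independently treated slices were pooled for each sample. The slice samples came from more than 1 independent experiment. Their titles carry a code (1A, 1B, 2A or 2B), and whether the codes mark these experiments is not stated. Adult microglia came from mice aged 10 to 15 weeks, 24 h after injection of 1 mg/kg lipopolysaccharide (LPS, a bacterial cell wall component, n = 4) or of phosphate-buffered saline (PBS, n = 4). In vivo samples were each from a separate mouse. Whole brain tissue was taken at 10 to 15 weeks of age too, 24 h after 1 mg/kg LPS (n = 4) or with no treatment (n = 4), so the brain controls had not been injected. Microglia were sorted as CD11b high, CD45 intermediate cells.

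A ribosome is built from ribosomal RNA and a single copy of nearly all of these proteins, with the stalk proteins Rplp1 and Rplp2 as the known exception. The small subunit holds and decodes the messenger RNA, and the large subunit joins the amino acids and carries the exit tunnel of the new chain. Transcripts of ribosomal proteins typically begin with a cytosine followed by a run of pyrimidines, the 5′ terminal oligopyrimidine (TOP) tract, through which mTOR signalling and the protein Larp1 control their translation and stability. Microglia are the resident macrophages of the brain.

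The annotated starts show how far this class mark is visible in the members. In the RefSeq promoter table (GRCm38.p6), 56 of the 76 genes had an entry, with 67 starts in all. The windows below hold 10 bases before the annotated start and 20 bases from it, 5′ to 3′ on the transcribed strand. Capitals mark a C followed by at least 4 further C or T, whose first base lies within 3 bases of the start. Rpl12, Rpl38, Rps6 and Rps27 are shown because all carry such a tract. Their LPS responses in adult microglia ran from the lowest of the set to nearly the highest. Rpsa and Rps2 are shown because they were among the strongest responders and had none by this definition. In Rps2 a run of this kind begins just past the limit of 3 bases.
Rpl12, chr2:32961702-32961731, plus strand: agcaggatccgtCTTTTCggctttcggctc
Rpl38, chr11:114668570-114668599, plus strand: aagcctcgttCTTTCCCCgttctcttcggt
Rps6, chr4:86857348-86857377, minus strand: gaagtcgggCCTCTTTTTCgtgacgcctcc
Rps27, chr3:90213629-90213658, minus strand: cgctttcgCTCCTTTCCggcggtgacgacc
Rpsa, chr9:120127756-120127785, plus strand: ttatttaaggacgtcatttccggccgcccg
Rps2, chr17:24720053-24720082, plus strand: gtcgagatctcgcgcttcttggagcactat
A tract was found at 25 of the 67 member starts (37.3%) and at 3792 of 32851 starts in the whole table (11.5%), counting the transcribed strand only. By gene, 24 of the 56 genes had a tract at 1 or more starts. The letters are a description of the annotated position, and a start annotated some bases away from the one in use would be missed.

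Other motifs were searched on both strands of the 300-base promoters (250 bases before the start and 50 from it). CCGGAAG, a core of ETS factor sites, was in 37.3% of the 67 member promoters and in 8.86% of all promoters. AAGATGGC, which resembles the site of YY1, was in 10.4% against 2.75%, and the GC box GGGCGG in 61.2% against 35.7%. The E-box CACGTG was in 11.9% against 7.15%, while TATAAA was in 8.96% against 13.6%. The motifs were counted separately, and a promoter can hold several of them.

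Depth was lowest in the slice table, at 5973364 to 9165485 counts a library, against 11391564 to 14216005 in the adult table and 8199863 to 10368578 in the brain table. The 10 microglia markers summed to 21437 to 30172 CPM in slice medium, 10988 to 13687 with TNF, 15791 to 17858 with GM-CSF, 58736 to 65549 in adult PBS and 41849 to 49446 in adult LPS, against 323 to 367 in untreated brain. In adult microglia the 8 neutrophil markers summed to 40.6 to 83.6 CPM with PBS and 1.61 to 8.45 with LPS (Ly6g and Retnlg at 0), the 7 endothelial markers to 40.7 to 49.6 and 15.0 to 17.4 (Cldn5 and Tek at 0 in both), and the 8 astrocyte markers to 255 to 281 and 147 to 183. In slices the 8 border macrophage and monocyte markers summed to 91.8 to 215 CPM in medium, 36.7 to 111 with TNF and 136 to 299 with GM-CSF, and the neutrophil markers to 0.832 to 15.8, 3.56 to 125 and 3.19 to 42.7 (Ly6g at 0 in all groups of slices). The astrocyte markers summed to 68.7 to 119.5 CPM in medium, 27.6 to 96.5 with TNF and 39.9 to 79.1 with GM-CSF, and the 9 oligodendrocyte markers to 139 to 226, 150.0 to 312 and 110.2 to 183. In brain tissue the oligodendrocyte markers summed to 6285 to 6862 CPM without treatment and 4834 to 5698 with LPS, and the endothelial markers to 183 to 201 and 254 to 307. The part of these other cells in the results below was not tested. In bulk samples, fewer cells of a type and less RNA per cell cannot be told apart.

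The 76 genes took a larger share of all counts after LPS in adult microglia, and hardly differed in brain tissue. The share was 0.481%, 0.526%, 0.518% and 0.543% in PBS replicates 1 to 4 and 0.810%, 0.850%, 0.878% and 0.827% in LPS replicates 1 to 4. All LPS libraries lay above all PBS libraries, with means of 0.517% ± 0.0262 and 0.842% ± 0.0297 (SD, n = 4 each), a ratio of 1.63. In brain tissue the share was 0.765%, 0.757%, 0.755% and 0.781% without treatment and 0.778%, 0.765%, 0.770% and 0.799% with LPS. These groups overlapped, and their means of 0.764% ± 0.0118 and 0.778% ± 0.0151 (SD, n = 4 each) differed by 0.0138 percentage points, about the spread between replicates.

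In slice microglia the share was 0.843 to 1.18% in medium (median 0.983%), 1.00 to 1.25% with TNF (median 1.11%) and 1.18 to 1.67% with GM-CSF (median 1.34%). All 9 GM-CSF libraries lay above the highest medium library, and 4 of the 11 TNF libraries did. The mean was 1.35 times that of medium with GM-CSF and 1.11 times with TNF. The medium libraries differed by title code, from 0.843% to 0.952% in 1A and 1B (n = 4) and from 0.983% to 1.18% in 2A and 2B (n = 5). Within 1A and 1B the difference from medium was 0.207 percentage points for TNF and 0.417 for GM-CSF, and within 2A and 2B it was 0.0378 and 0.305. The GM-CSF difference was thus present within both pairs of codes, though larger in 1A and 1B, while that of TNF lay mostly in 1A and 1B.

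**Figure D1:**
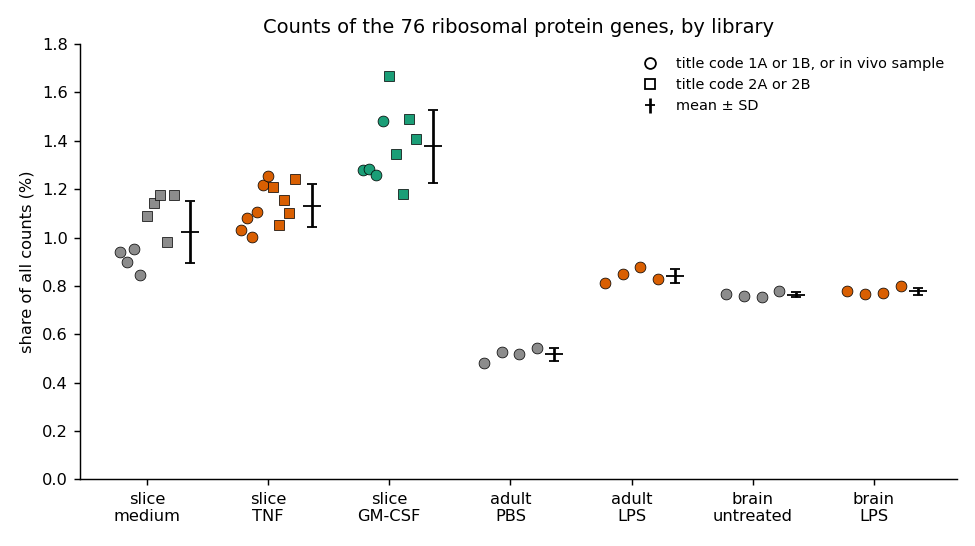
Share of all counts (%) taken by the 76 ribosomal protein genes in every library of the 7 groups, with the mean ± SD beside each group; circles are title codes 1A and 1B or in vivo samples, squares are 2A and 2B. The adult LPS libraries (0.810% to 0.878%) sit above the PBS libraries (0.481% to 0.543%), and the brain groups overlap.

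Both subunits took part. In adult microglia the 40S genes made up 0.210% of counts with PBS and 0.350% with LPS, and the 60S genes 0.306% and 0.492% (means, n = 4 each). The ratio of 60S to 40S counts was 1.46 ± 0.00915 with PBS and 1.41 ± 0.0112 with LPS, without overlap, so the balance moved slightly towards the small subunit. It was 1.35 ± 0.0481 in slice medium (n = 9) and 1.61 ± 0.00449 in untreated brain (n = 4).

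Levels of different genes were compared as CPM per kilobase of the gene's median protein-coding transcript. The median member stood at 149.8 CPM per kb in slice medium, 76.8 in adult PBS and 117 in untreated brain. Rps29, a small zinc-binding protein of the 40S subunit, was highest in slice medium (566) and adult PBS (330.4), and Rplp1, of the stalk, in untreated brain (656). The lowest were Rpl13a in slice medium (11.5), Rpl5 in adult PBS (5.62) and Rpl12 in untreated brain (8.28). The order depends on the length used: with the union of all annotated exons the highest member of slice medium was Rpl32.

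Levels were not alike between the tables. The slice and adult libraries share a kit but differ in read layout and in the kind of counts deposited, and the cells differ in age and culture, which cannot be told apart in these ratios. Of the 76 genes, 70 were higher in slice medium than in adult PBS, with a median ratio of 1.99 and a range from 0.109 (Rpl13a) to 10.8 (Rps12). Rpl13a, a 60S protein that also takes part in silencing translation after interferon, stood at 8.90 ± 2.53 CPM in slice medium (SD, n = 9), 81.9 ± 3.32 in adult PBS and 250.4 ± 10.9 in untreated brain (n = 4 each). An exon of Rpl13a overlaps the protein-coding gene Gm45713 on the same strand. Rpl24, left out for its level, was at 0 to 0.433 CPM in slice medium and 38.1 to 43.7 in adult PBS, and it overlaps Gm28037 on the same strand. In all, 36 members share exonic bases with another annotated gene, most often a small nucleolar RNA, and 297 pseudogenes are named after 59 of them. Reads of these genes could be split or lost in counting, so their levels are uncertain. The tests below stay within a table, except the interaction test, which joins the adult and brain tables.

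In adult microglia, LPS raised nearly the whole set. Of the 76 genes, 73 were higher at an adjusted p under 0.05 (edgeR's quasi-likelihood test with Benjamini-Hochberg adjustment over 12987 genes), against 26.7% of all genes tested. More than 1.5-fold rises were seen in 55, against 14.4% of all genes. In 74 genes all LPS libraries lay above all PBS libraries, against 24.1% of all genes. The median log2 fold change was 0.73, a fold of 1.66, beside 0.012 for all genes, and it was 0.76 for the 40S and 0.73 for the 60S genes.

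Among 40S proteins, Rpsa, also known as the precursor of a laminin receptor, changed most. It was 66.9, 75.5, 69.7 and 74.4 CPM with PBS and 225, 197, 205 and 194 CPM with LPS. The groups were far apart, with a log2 fold change of 1.52 ± 0.072 (SE; edgeR, Benjamini-Hochberg adjusted p = 6.79e-08). Rps2, near the entry of the messenger RNA channel, was 75.6, 78.9, 79.5 and 81.1 CPM with PBS and 199.8, 182, 192 and 197 CPM with LPS. Again no library overlapped, and its log2 fold change was 1.29 ± 0.061 (edgeR, Benjamini-Hochberg adjusted p = 6.79e-08).

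Rps19, mutated in Diamond-Blackfan anemia, was 75.9, 85.8, 79.5 and 88.0 CPM with PBS and 165, 160.3, 164 and 167 CPM with LPS. All LPS libraries were higher, by a log2 fold change of 0.99 ± 0.066 (edgeR, Benjamini-Hochberg adjusted p = 5.52e-07). Rps27a, made as a fusion with ubiquitin, rose by 0.96 ± 0.075 on the same scale, and Rps6, the substrate of the S6 kinases, by 0.76 ± 0.062. Rps25, needed for initiation at some internal ribosome entry sites, rose by 0.67 ± 0.064, and Rps29 by 0.47 ± 0.068. The smallest called 40S rise was that of Rps3, which lines the channel entry: 142 to 161 CPM with PBS and 186 to 196 CPM with LPS, a log2 fold change of 0.31 ± 0.062. Rps14 rose by 0.43 ± 0.063.

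Among 60S proteins, Rpl12, at the base of the stalk, was 9.68, 11.4, 9.57 and 11.9 CPM with PBS and 27.6, 24.0, 31.3 and 34.0 CPM with LPS. Its libraries did not overlap, and the log2 fold change was 1.46 ± 0.13 (edgeR, Benjamini-Hochberg adjusted p = 4.07e-06), with a wider error than that of Rpsa at its lower level. Rpl38, known for its part in translating Hox transcripts, was 26.7, 23.4, 25.7 and 26.4 CPM with PBS and 59.7, 56.9, 62.8 and 63.7 CPM with LPS. The groups were again separate, with a log2 fold change of 1.25 ± 0.078 (edgeR, Benjamini-Hochberg adjusted p = 3.60e-07). Rpl5 and Rpl11, which carry the 5S RNA and bind Mdm2 when outside the ribosome, rose by 1.09 ± 0.14 and 0.65 ± 0.12.

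The stalk, which recruits the elongation factors, rose as a whole. Its scaffold Rplp0 was 190.1 to 202 CPM with PBS and 373 to 408 CPM with LPS, a log2 fold change of 1.01 ± 0.06. Its arms Rplp1 and Rplp2 rose by 0.76 ± 0.068 and 0.74 ± 0.068. Rpl3, close to the peptidyl transferase centre, rose by 0.82 ± 0.062, Rpl39, in the exit tunnel, by 0.82 ± 0.079, and Rpl41, the smallest of the proteins, by 0.64 ± 0.056. Rpl22, Rpl13a and Rpl10 rose by 0.55, 0.50 and 0.47, and the smallest called 60S changes were those of Rpl23a (0.32 ± 0.082) and Rpl7 (0.26 ± 0.069).

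Rps27 and Rps12 were among the genes that did not pass, and Rps12 is named here after its values were seen. Rps27, a zinc-binding 40S protein, was 72.0, 86.2, 84.9 and 85.5 CPM with PBS and 71.6, 68.1, 87.4 and 69.5 CPM with LPS. The groups overlapped, with a log2 difference of -0.15 ± 0.093 (edgeR, Benjamini-Hochberg adjusted p = 0.207). Its start carries a TOP tract. Without LPS replicate 3, the highest of its group, the value was -0.23 (edgeR, Benjamini-Hochberg adjusted p = 0.0382). Its paralogue Rps27l, a target of p53, was 37.5 to 44.8 CPM with PBS and 57.7 to 65.98 CPM with LPS. Rps27l was thus higher in every LPS library, by 0.60 ± 0.08. Rps12 was 1.36, 3.44, 8.44 and 6.41 CPM with PBS and 12.2, 7.95, 3.14 and 12.4 CPM with LPS, so that its value of 0.87 ± 0.58 rests on low and scattered levels.

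**Figure D2:**
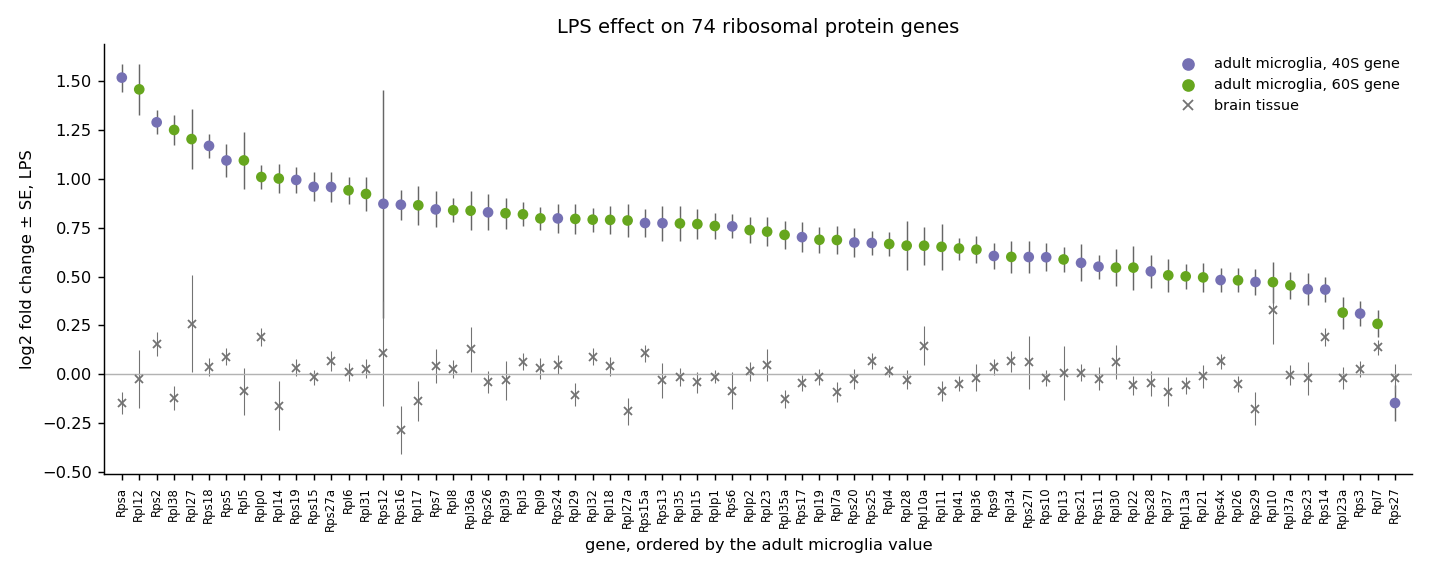
Log2 fold change ± SE after LPS for 74 of the 76 genes, ordered by the value in adult microglia (circles, by subunit), with brain tissue as crosses. Adult microglia run from -0.15 (Rps27) to 1.52 (Rpsa), and brain tissue values lie around 0.

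The size of the adult response had little relation to transcript length or level. Over the 76 genes, which share the same libraries, Spearman's rho of the log2 fold change was 0.20 with transcript length and -0.19 with mean level. The 25 shortest genes (345 to 624 bases) had a median of 0.64 and the 25 longest (937 to 5130 bases) 0.77. Other genes of up to 5130 bases, 9673 in all, had a median of 0.017. That limit is far above the length of most members, so these genes are not matched to them in length. The 24 genes with a TOP tract at an annotated start had a median of 0.75, from -0.15 to 1.46. The 32 genes counted as without one also had a median of 0.75, from 0.31 to 1.52. Genes counted as without a tract may still carry one, since a tract farther from the annotated start is missed. In Rps2 and Rps26 such a run begins just past the limit. The split therefore cannot separate genes with and without a tract, and the part of the tract in the response was not tested.

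Brain tissue gave a different picture. Of the 76 genes, 3 rose at an adjusted p under 0.05 (edgeR, Benjamini-Hochberg), against 6.06% of 15083 genes, and the median log2 fold change was -0.0076 beside 0.0028 for all genes. Rplp0 was 140.2, 136, 144 and 147 CPM without treatment and 153, 162, 159.9 and 172 CPM with LPS. Every LPS library was higher, but the log2 fold change was only 0.19 ± 0.045 (edgeR, Benjamini-Hochberg adjusted p = 0.0123). Rps14 rose by 0.19 ± 0.046 and Rpl7 by 0.14 ± 0.039. Each of these calls was lost when 1 library was left out: without LPS replicate 4 the adjusted p (edgeR, Benjamini-Hochberg) was 0.0524 for Rplp0, 0.0533 for Rps14 and 0.114 for Rpl7. Rpsa, the leader in adult microglia, was 127, 120.1, 111 and 124 CPM without treatment and 116, 107, 99.6 and 114 CPM with LPS. These groups overlapped, with a log2 difference of -0.15 ± 0.055 (edgeR, Benjamini-Hochberg adjusted p = 0.114). Microglia markers were a small part of the tissue, 268 to 469.6 CPM with LPS.

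The 2 LPS effects were set against each other with an interaction term in a model of all 16 in vivo libraries. The effect was larger in adult microglia for 71 of the 76 genes at an adjusted p under 0.05 (edgeR, Benjamini-Hochberg), against 14.5% of 16676 genes, and by more than 1.5-fold for 53, against 9.1%. The median difference was 0.72 on the log2 scale, beside -0.025 for all genes. Rpsa led with 1.66 ± 0.097 (edgeR, Benjamini-Hochberg adjusted p = 7.25e-10), followed by Rpl12 with 1.47 ± 0.21 and Rpl38 with 1.36 ± 0.10. The smallest called differences were 0.33 ± 0.11 for Rpl23a, 0.27 ± 0.078 for Rps3 and 0.23 ± 0.08 for Rps14, the last with an adjusted p (edgeR, Benjamini-Hochberg) of 0.0312, and of 0.0671 without TMM scaling. The call of Rpl23a was lost in several fits with a single library left out. Without adult LPS replicate 3 its adjusted p (edgeR, Benjamini-Hochberg) was 0.0617. That of Rps14 was also lost in several such fits, and with DESeq2 size factors or no filter on low counts. Tissue, library kit and the kind of control differ together here and cannot be told apart.

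**Figure D3:**
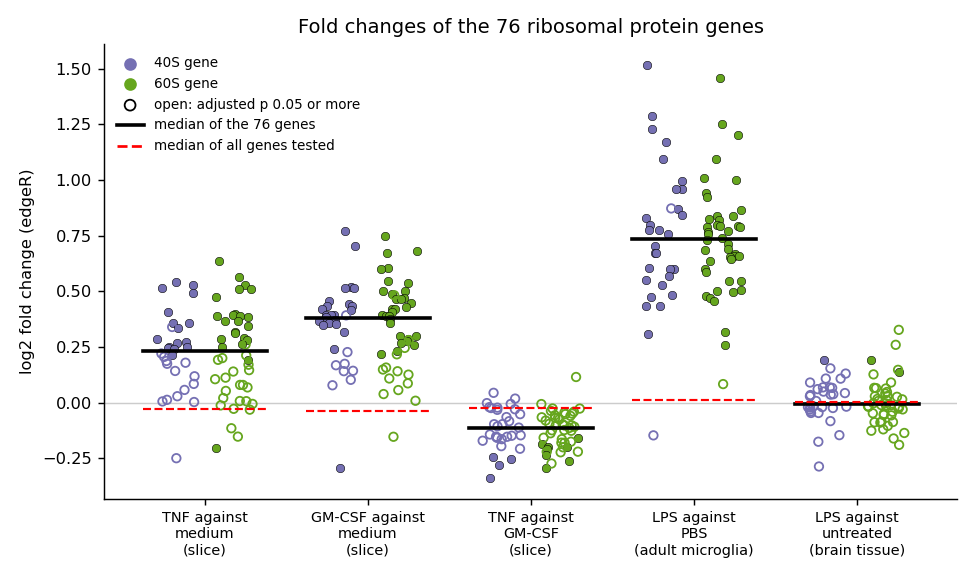
Log2 fold change of the 76 genes in 5 comparisons, 1 point per gene with 40S and 60S genes side by side and open points at an adjusted p of 0.05 or more; solid lines are medians of the 76 genes and dashed lines medians of all genes tested. The members' median is 0.73 in adult microglia, 0.38 with GM-CSF, 0.23 with TNF and -0.0076 in brain tissue.

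In slice microglia, GM-CSF raised most of the set by a modest amount. Of the 76 genes, 53 were higher than in medium at an adjusted p under 0.05 (edgeR, Benjamini-Hochberg), against 12.1% of 11313 genes, and 7 by more than 1.5-fold, against 4.84%. A single gene, Rps27, was lower, against 13.4% of all genes. The median log2 fold change was 0.38 beside -0.039 for all genes, with 0.38 for both subunits. Within title codes 1A and 1B 56 genes were higher (median 0.49), against 9.89% of all genes, and within 2A and 2B 29 were (median 0.30), against 5.81%. With total counts in place of TMM 65 were higher, against 17.7%. The count past 1.5-fold was 16 with total counts (against 7.22% of all genes) and 18 within 1A and 1B (against 5.27%). Within 2A and 2B it was 5, against 396 of 11361 genes.

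Rps15, in the head of the 40S subunit, led with 96.0 to 133 CPM in medium (median 113) and 162 to 249 CPM with GM-CSF (median 189). No library overlapped, and the log2 fold change was 0.77 ± 0.072 (edgeR, Benjamini-Hochberg adjusted p = 2.53e-10). Rpl38 was 59.997 to 100.1 CPM in medium (median 71.4) and 106 to 156 CPM with GM-CSF (median 123), also apart, by 0.75 ± 0.10. Rpl27 rose by 0.68 ± 0.086, Rpl5 by 0.67 ± 0.066, Rpl12 by 0.61 ± 0.099 and Rplp0 by 0.60 ± 0.086. Each of these was past 1.5-fold.

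Further role genes rose less. Rpsa was 109 to 151 CPM in medium (median 136) and 147 to 221 CPM with GM-CSF (median 165), overlapping slightly, a log2 fold change of 0.37 ± 0.082. Rps27l rose by 0.52 ± 0.12, Rpl39 by 0.49 ± 0.11, Rps27a by 0.42 ± 0.09, Rps6 by 0.39 ± 0.063 and Rps2 by 0.39 ± 0.081. Rpl11, Rplp1, Rplp2 and Rpl22 rose by 0.30, 0.39, 0.36 and 0.41, and the smallest called rises were those of Rps3 (0.24), Rpl3 (0.23) and Rpl7a (0.22). Of the rises named, those of Rpsa, Rps2, Rpl11, Rplp1, Rplp2, Rpl22, Rps3, Rpl3 and Rpl7a did not pass within 2A and 2B alone, nor that of Rpl7a within 1A and 1B alone.

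Several role genes did not pass with GM-CSF. Rps19 was 217 to 335 CPM in medium and 231 to 362 CPM with GM-CSF, largely the same range, with a log2 difference of 0.078 ± 0.083 (edgeR, Benjamini-Hochberg adjusted p = 0.552). Rpl10, Rpl41, Rps25 and Rps29 differed by 0.038, 0.086, 0.17 and 0.17, and Rpl13a by 0.48 ± 0.18 at its low level. Rpl13a passed in 7 alternatives, with an adjusted p (edgeR, Benjamini-Hochberg) of 0.0150 with total counts and 0.0363 with the title code as covariate. Rps25 and Rps29 passed with total counts, and Rps29 within 1A and 1B alone. Rps27 was 75.6 to 166 CPM in medium (median 115) and 73.2 to 122 CPM with GM-CSF (median 98.5). The ranges overlapped, and its log2 fold change of -0.29 ± 0.11 (edgeR, Benjamini-Hochberg adjusted p = 0.0428) no longer passed in 6 alternatives, with an adjusted p (edgeR, Benjamini-Hochberg) of 0.217 without TMM scaling.

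TNF raised part of the set, by small amounts. Of the 76 genes, 38 were higher than in medium at an adjusted p under 0.05 (edgeR, Benjamini-Hochberg), against 19.9% of 11313 genes, and 1 was lower, against 19.7%. Rpl27 alone rose more than 1.5-fold, 1.32% of the members against 9.1% of all genes. Within title codes 1A and 1B alone 12 did, 15.8% of the members against 9.44% of all genes, and within 2A and 2B 0. The median log2 fold change was 0.23 beside -0.031 for all genes. Within title codes 1A and 1B 52 genes were higher (median 0.41), against 17.5% of all genes, and within 2A and 2B 16 were (median 0.14), against 12.3%. With the title code as covariate 47 were higher, against 21.1%, and with total counts 29, against 16.8%.

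Rpl27, of the 60S subunit, was 58.2 to 85.8 CPM in medium (median 73.9) and 94.7 to 135 CPM with TNF (median 111). All TNF libraries were higher, by a log2 fold change of 0.64 ± 0.083 (edgeR, Benjamini-Hochberg adjusted p = 7.75e-08). Rplp0 was 373 to 498 CPM in medium (median 423) and 517 to 787 CPM with TNF (median 594), again without overlap, by 0.56 ± 0.082. Rps15, Rpl38, Rps27l and Rpl5 rose by 0.53, 0.53, 0.52 and 0.51. Rpl39, Rps6, Rplp2, Rpl22, Rps27a and Rps2 rose by 0.25 to 0.39, and the smallest called rises were those of Rps7 (0.24), Rpsa (0.21) and Rpl4 (0.19), whose protein reaches into the exit tunnel. Rps7, Rpsa, Rps2, Rps27a and Rpl22 did not pass with total counts, nor did these, Rpl4, Rpl39 and Rplp2 within 2A and 2B alone, or Rpsa and Rpl22 with no filter on low counts.

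Of the genes named by role, 11 did not pass with TNF, from -0.25 for Rps27 to 0.26 for Rpl13a, with Rps19 at 0.057 ± 0.079 and Rpl11 at 0.20 ± 0.084. Rps3, Rpl11 and Rplp1 passed with the title code as covariate, at adjusted p-values (edgeR, Benjamini-Hochberg) of 0.0393, 0.0280 and 0.0191, and within 1A and 1B alone. Rps27 passed as lower with total counts, a minimum count of 50 or the replicate block. The slice groups overlapped for Rps19 with both cytokines.

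**Figure D4:**
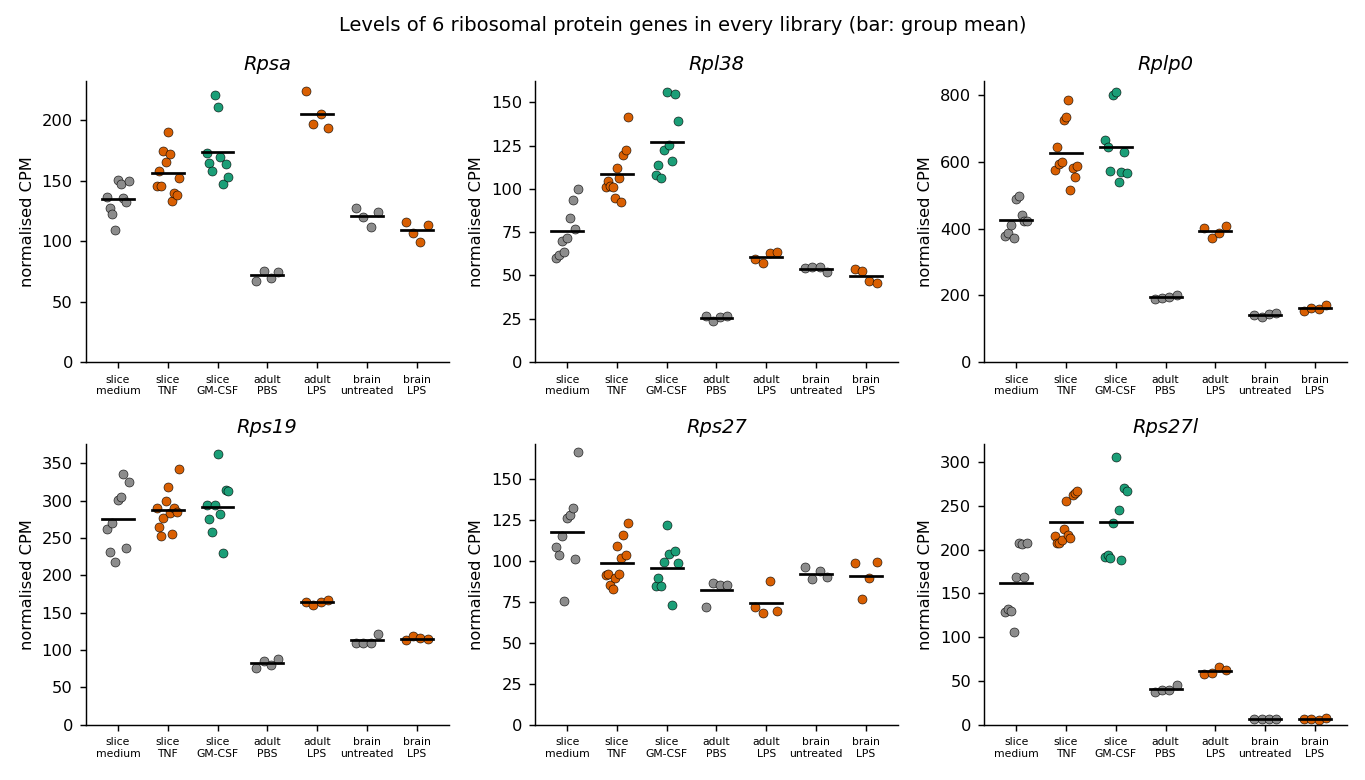
Normalised CPM of Rpsa, Rpl38, Rplp0, Rps19, Rps27 and Rps27l in every library of the 7 groups, with group means as bars; levels are not comparable between slice, adult and brain tables. After LPS in adult microglia all but Rps27 are separate from PBS, and Rps19 and Rps27 overlap between the slice groups.

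Set directly against GM-CSF, TNF gave lower levels for 12 of the 76 genes at an adjusted p under 0.05 (edgeR, Benjamini-Hochberg), against 14.9% of all genes, a share near the background. The largest differences were -0.34 ± 0.11 for Rps21, -0.29 ± 0.092 for Rpl10a, -0.28 ± 0.072 for Rps4x and -0.26 ± 0.068 for Rpl21 on the log2 scale, and the smallest called -0.16 for Rpl5, -0.19 for Rpl14, -0.20 for Rpl4 and -0.20 for Rpl8. Within 2A and 2B alone all of these genes but Rpl8 lost their call, and within 1A and 1B alone Rpl5, Rpl14 and Rpl8 did. Rpl5 also did not pass with no filter on low counts or with the replicate block. The median of the 76 genes was -0.11 beside -0.023 for all genes. The count of 12 depends on scaling, since with total counts in place of TMM it was 64, against 3322 of 11313 genes. That scaling moved the median of all genes by -0.17 here and by 0.11 for GM-CSF, whose calls over all genes went from 1374 higher and 1518 lower to 2005 higher and 981 lower. Relative to all genes, the members' median was -0.091 with total counts.

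The cytokine comparisons share their medium libraries, so their values stand side by side only. The adult comparison shares no library with them. Over the 76 genes, Pearson's r of the adult LPS log2 fold change was 0.52 with that of TNF (Spearman's rho 0.46), 0.60 with that of GM-CSF (rho 0.50) and -0.0021 with that of LPS in brain tissue (rho 0.052), given as descriptions over genes. All 38 genes called higher with TNF and all 53 with GM-CSF were also called higher in adult LPS, where 73 of 76 were. In 20 genes the adult call stood alone beside the cytokines, and 3, Rps12 and Rps27 among them, were called higher nowhere.

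Other ribosomal and related genes, outside the symbol rule, rose in part in microglia. Of 7 such genes, 6 rose in adult LPS (median 0.76), 3 with GM-CSF (0.29) and 4 with TNF (0.20), and the brain median was -0.028. Rack1, a signalling scaffold on the head of the 40S subunit, was highest, at 1.25 ± 0.086 in adult LPS, 0.71 ± 0.093 with GM-CSF and 0.62 ± 0.089 with TNF. The lowest in adult LPS was Rpl7l1, at -0.0011, a gene named after Rpl7 whose place in the ribosome was not examined. The gene lists in these paragraphs were set with earlier results of these data known. Their counts stand beside those of all genes tested, of which 26.7% rose and 24.9% fell in adult LPS, 12.1% and 13.4% with GM-CSF, and 19.9% and 19.7% with TNF.

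Ribosome biogenesis genes rose more than the ribosomal proteins themselves by median, a difference that was not tested. Of 35 genes, 33 rose and 1 fell in adult LPS (median 0.92), 28 rose with GM-CSF (0.73) and 21 with TNF (0.41), while the brain median was -0.00075. Rrp12, needed for maturation and export of pre-ribosomes, was highest in each microglia comparison, at 1.70, 1.33 and 0.91. The gene that fell was Sbds, which acts late in maturation of the 60S subunit, at -0.69 (edgeR, Benjamini-Hochberg adjusted p = 2.12e-05). Of 16 RNA polymerase I genes, which serve the making of ribosomal RNA, 8 rose (50%) and 1 fell in adult LPS, 6 rose with GM-CSF (37.5%) and 5 with TNF (31.2%).

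Other TOP transcripts moved less evenly. Of 15 translation factors and other coding TOP genes, 13 rose in adult LPS (median 0.54), 8 rose and 1 fell with GM-CSF (0.42), and 7 rose and 2 fell with TNF (0.13). The highest in adult LPS and with TNF was Vim (1.42 and 1.25), which encodes an intermediate filament and not a translation factor, and the highest with GM-CSF was the elongation factor subunit Eef1g (0.92). Of 8 noncoding TOP hosts of small nucleolar RNAs, 7 rose in adult LPS (median 1.30, highest Snhg1 at 1.63) and 1 with each cytokine, with medians of 0.16 for GM-CSF and -0.12 for TNF.

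Initiation factors and mitochondrial ribosomal proteins rose in part, and the shares of mTOR signalling genes lay nearer to those of all genes. Of 27 translation initiation genes, 19 rose in adult LPS and 18 with each cytokine, with 1 lower in each, and the highest were Eif5a in adult LPS (1.05) and GM-CSF (0.85) and Eif6, an anti-association factor of the 60S subunit, with TNF (0.96). Of 22 tested genes of mTOR signalling and TOP control, 8 rose (36.4%) and 4 fell (18.2%) in adult LPS, 5 (22.7%) and 1 with GM-CSF, and 6 (27.3%) and 3 with TNF. Myc, a transcription factor known to act on ribosomal genes, was highest in adult LPS (1.77) and with GM-CSF (1.44), and the cell cycle inhibitor Cdkn1a with TNF (1.31). Of the mitochondrial ribosomal proteins, 40 of 78 rose in adult LPS (median 0.25), 44 of 77 with GM-CSF (0.33) and 46 of 77 with TNF (0.33), and 1 fell in adult LPS and 1 with TNF. Their median was below that of the cytosolic genes in adult LPS and above it with TNF, with no test of either difference.

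**Figure D5:**
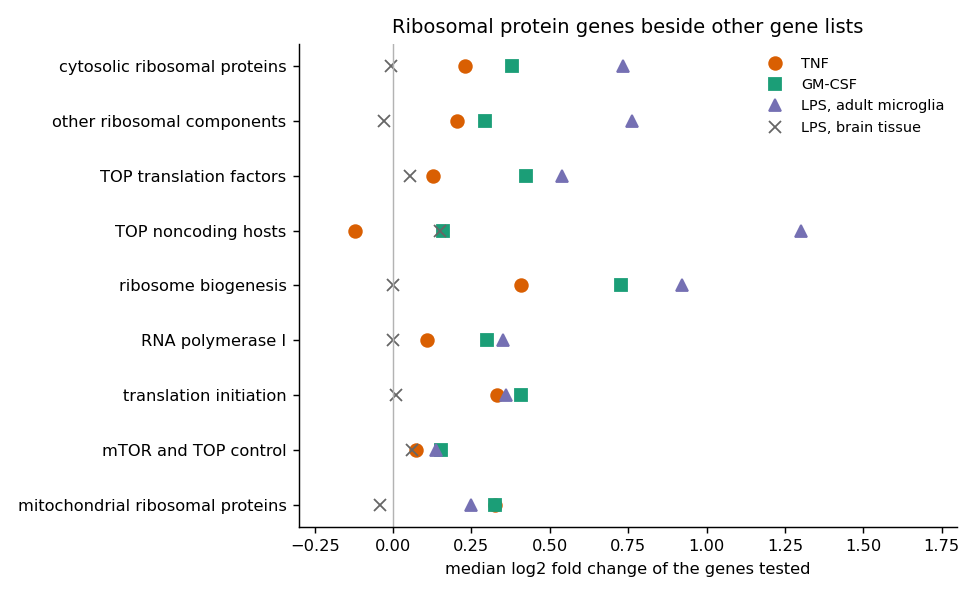
Median log2 fold change of the tested genes in 9 gene lists (rows), for TNF, GM-CSF and LPS in adult microglia and LPS in brain tissue. Adult LPS medians run from 0.14 (mTOR and TOP control) to 1.30 (noncoding TOP hosts), with the cytosolic ribosomal proteins at 0.73, and those of brain tissue from -0.041 to 0.15.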

How the data were processed

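RNA of 45 mouse samples in 7 groups was sequenced. For slice microglia the authors deposited counts, whole numbers per gene. The submitters' processing notes name STAR 2.7.0a, featureCounts and Subread 1.6.4 for these. For adult microglia and brain tissue the authors deposited expected counts, for which the counting tool is not given in the sources used here. Rounding them to whole numbers changed totals by 0.00107% and 0.00113%. The genome was mm10, and no strand or multimapping setting is given. In the brain table, 92 rows naming no gene held 0 counts, and Gas5, Gad2 and Mrc1 are listed at 0. Microglia libraries used SMART-Seq v4 with Nextera XT, brain libraries a TruSeq mRNA kit. Annotation was GENCODE M21.

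Counts were tested per table with edgeR 4.0.16 (R 4.3.3, TMM, filter of 10 counts and 15 in total, quasi-likelihood, Benjamini-Hochberg over all genes tested). The interaction was fitted on the adult and brain tables joined by gene. Standard errors were calculated back from each test, as the absolute log2 fold change divided by the square root of the F statistic. These fits were tested on simulated data. Alternatives were other scalings and filters, DESeq2 1.42.0, limma-voom (limma 3.58.1), title codes, a replicate block and leaving out each in vivo library; leaving them out of the interaction was added after seeing the data. Named genes are the 4 largest and 4 smallest called changes of a comparison (3 and 3 for the interaction), 22 genes by role, and the highest and lowest of each list; 2 members are counted but not reported by name here. Members and lists were chosen with earlier results of these data known. In vivo samples came from separate mice and slice samples from separately treated slices of several experiments, which the main test does not model. Reads carry no molecular identifiers, so errors from counting are not those of molecules.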

Additional observations from a re-analysis of the deposited data

Results flagged for a closer look

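In groups of 4 to 10 libraries, single values were compared with the rest of their group by the gap to the nearest library over the range. Of 186 groups of values, 7 had a library that stood apart, and chance gives about 1 in 20. Rpl10 was 41.7 CPM in untreated brain replicate 1 (others 30.9 to 32.4) and 57.9 CPM in LPS brain replicate 3 (others 36.1 to 38.9). Rps19 was 121 CPM in untreated brain replicate 4 (others up to 109.9). In adult PBS, Rpl13a was 86.9 CPM in replicate 4 (others up to 80.6), Rpl41 was 110.0 CPM in replicate 2 (others up to 106.5) and Rps27 was 72.0 CPM in replicate 1 (others from 84.9). Rps27a was 226.5 CPM in slice GM-CSF replicate 5 (others up to 187.7).

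The LPS effect differed between adult microglia and brain tissue for 71 of the 76 genes by the interaction test (edgeR). Among the named genes the difference on the log2 scale was 1.66 for Rpsa, 1.47 for Rpl12, 1.36 for Rpl38, 0.33 for Rpl23a, 0.27 for Rps3 and 0.23 for Rps14.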

How the results depend on the processing

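In adult microglia 73 genes were higher in every alternative run, leave-one-out included. Over all genes the count ran from 3059 of 13202 (without PBS replicate 3) to 3755 of 13225 (without LPS replicate 2). With title codes 1A and 1B alone, TNF gave 12 genes over 1.5-fold, 0 lower and a median of 0.41. Over all 11466 genes these counts were 1082 and 1695. GM-CSF gave 18 over 1.5-fold and 0 lower, against 604 and 1043 of all genes. TNF was below GM-CSF for 6 members, against 1224 of 11466 genes. With 2A and 2B alone, TNF gave 16 higher and 0 over 1.5-fold, against 1399 and 901 of 11361 genes. GM-CSF gave 29 higher and 0 lower there, against 660 and 686. TNF was below GM-CSF for 2 members, against 938 of 11361 genes. With total counts in place of TMM, TNF gave 2 members lower, against 2651 of 11313 genes, and 0 over 1.5-fold, against 881. GM-CSF gave 0 lower and 16 over 1.5-fold, against 981 and 817 of all genes. TNF was below GM-CSF for 64 members, against 3322 of all genes, with a median of -0.29 over the members. For GM-CSF the count lower was 0 with DESeq2 size factors, limma-voom or no filter, against 1447 and 1589 of 11313 and 1363 of 25192 genes. It was 2 with the title code as covariate, against 1645 of 11313. A minimum count of 50 gave 2 lower with GM-CSF and 2 with TNF, against 1546 and 2109 of 9205 genes. Leaving out 1 library, the brain count ran from 0 without LPS replicate 4, against 656 of 15265 genes, to 5 without LPS replicate 3, against 1177 of 15257. The brain count was 1 without untreated replicate 2 or 4, against 640 of 15230 and 652 of 15250 genes, and the brain median ran from -0.012 to 0.017. Of 1851 values of named genes under alternatives, 72 lost and 49 gained a call. With a call in the main fit or the alternative, 0 turned direction. Sign changes of values called in neither fit were not counted. Title code subsets hold fewer samples; otherwise the cause was not tested.

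With the replicate block, TNF gave 40 members higher, 3 lower and 2 over 1.5-fold higher. Over all 11313 genes these counts were 2325, 2321 and 1066. GM-CSF gave 57 higher, against 1547 of all genes, and TNF was below GM-CSF for 22, against 1750. Adult LPS gave 73 higher, against 3278 of 12987 genes, and brain LPS 2, against 763 of 15083. Correlations of deviations between samples with the same number were low, and whether the numbers pair the samples was not settled. For TNF and medium they ran from 0.041 to 0.19, with 4 of 9 over 0.1. For GM-CSF and medium they ran from 0.015 to 0.13, with 2 of 9 over 0.1. Slice samples with the same number often share a title code, so pairing and code cannot be told apart. None of the in vivo pairs was over 0.1. At a median standard error of 0.084 on the log2 scale in slice and 0.075 in adult libraries, small differences of single members would be missed.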
